A study of Mus musculus with 6 samples.

Results

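The limb and body wall patterning factors are 31 transcription factors that place mesenchyme along the axes of the limb, face and trunk, Hox genes apart. They were chosen by name, with earlier results of these data known. On the array, all 31 had at least 1 probe set annotated to that gene alone, among 18193 such genes. A probe set is a group of short array sequences read as 1 value, and each gene was read from its probe set of highest mean. RNA came from primary mouse fibroblasts of the strain label C57bl6X129S3/J, from lines derived from siblings, either wild type (WT, 3 samples) or carrying the Delta9 allele of Lmna, the lamin A and lamin C gene (Delta9, 3 samples). All 6 cultures were at passage 3, grown on a 3T3 schedule, and had been without serum for 72 hours. Zygosity, sex, the body site that was sampled and the number of animals are not stated in the labels or the series text. The sample labels call the cells adult and the series text calls them post-natal. The text names independent replicates without saying what was repeated, so p-values here speak of the spread among these cultures only, which may be technical.

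Fibroblasts keep part of the positional program of the embryo. Pairs and families of homeobox, T-box and basic helix-loop-helix factors are switched on in limb bud, somite, face or body wall mesenchyme, and many stay on in the connective tissue that those regions form. Tbx5 marks forelimb, Tbx4 and Pitx1 hindlimb, Lmx1b the dorsal limb, En1 the ventral limb ectoderm and part of the trunk dermis. Tbx15, Tbx18, Twist2 and Prrx1 are used in dermis and body wall, and Alx1 and the Dlx genes in facial mesenchyme of neural crest origin.

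The labels were checked on Lmna, at 8.67 ± 0.28 log2 in the WT samples against 6.71 ± 0.52 in the Delta9 samples (SD, n = 3), groups apart. Where its probes lie against the alteration was not determined. Fibroblast identity was checked on its defining markers, and 11 of 11 measured ones lay above the dim range described next. Keratinocyte genes were mostly dim (2 of 11 above it, Epcam and Krt10, with Krt5 and Krt14 not among them). Macrophage genes were above it for 18 of 20. Skeletal muscle genes were above it for 7 of 12, among them Myog (5.10 in WT and 5.49 in Delta9) but not Myod1, Myf5 or Pax7. Delta9 replicate 3 and WT replicate 1 read lowest on the poly-A spike-ins, control transcripts added before labelling (4.87 and 4.55 against 5.25 to 5.67 log2). The 18S probe sets were dimmest on WT replicate 3, at 7.86 log2, the other arrays reading 9.21 to 10.4. Of the 3′ to 5′ differences of control probe sets, a sign of RNA quality, that of Gapdh was 0.25 and 0.23 log2 in Delta9 replicates 1 and 2 and 0.49 to 0.57 on the other arrays, and that of beta-actin was 1.41 on WT replicate 3 and 0.51 to 0.86 on the others. The number of arrays limits the precision.

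By level, 13 of the 31 factors (41.9%, against 49.2% of all genes) lay above what is here called the dim range. The deposited values carry no detection calls, so the range was set by 74 measured genes restricted to organs such as liver, retina and testis. A factor counted as above it where its mean in at least 1 group exceeded the 95th percentile of those genes, 5.02 in WT and 4.96 in Delta9 (log2). Probe sets differ in sensitivity, so a dim reading bounds what the array saw and is no statement that the gene is silent.

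The factors that mark limb identity were all within the dim range in both genotypes. Tbx5, the forelimb factor, read 4.10, 3.94 and 3.64 in WT replicates 1, 2 and 3 and 4.02, 3.67 and 3.94 in Delta9. The groups overlapped and the difference (Delta9 minus WT, log2, here and throughout) was -0.02, with a 95% interval of -0.41 to 0.36. Tbx4 of the hindlimb read 3.26, 2.96 and 4.07 in WT and 3.62, 3.08 and 2.84 in Delta9, again overlapping (-0.25, interval -0.99 to 0.49). Pitx1, which gives the hindlimb its identity, lay just under the limit at 4.90, 4.74 and 4.72 in WT and 4.79, 4.66 and 4.54 in Delta9 (-0.12, interval -0.44 to 0.19). It was the 1 factor to join the others, making 14, when the limit was set at the 90th percentile. Lmx1b of the dorsal limb was at 3.76, 3.57 and 3.55 in WT and 3.55, 3.39 and 3.44 in Delta9, with WT replicate 1 the highest.

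Factors above the limit came mostly from the dermis, body wall, somite and general limb bud lists. Of 6 listed for body wall and dermis, 4 were above it (Tbx15, Tbx18, Twist2 and Prrx1), while Alx4 and En1 were dim. Both somite factors, Meox1 and Meox2, were above it. Of 6 listed for the face, 1 was, Six2, a factor also of kidney progenitors and above it in WT only (5.27, against 4.62 in Delta9), and Alx1, Dlx1, Dlx2, Dlx3 and Dlx5 were not. None of the 3 visceral and kidney factors, Tcf21, Foxd1 and Eya1, was above it, and of 10 factors of limb bud mesenchyme at large 7 were, without Tbx2, Tbx3 and Msx2. Of these, Msx1 was above it in WT only, and Meis1 and Meis2 in Delta9 only. Of 13 Hox genes measured, 8 lay above the limit: Hoxa5, Hoxc6, Hoxc8, Hoxc9, Hoxd9, Hoxa10, Hoxc10 and Hoxa11, from anterior to posterior groups. Hoxa11 was above it in WT only (5.20, against 4.67 in Delta9). Hoxc10 of the lumbar and hindlimb level had a mean of 6.77 ± 0.11 log2 in WT against 6.85 ± 0.13 in Delta9 (SD, n = 3), whereas the digit-level Hoxd13 and Hoxa13 were dim in both groups.

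**Figure D1:**
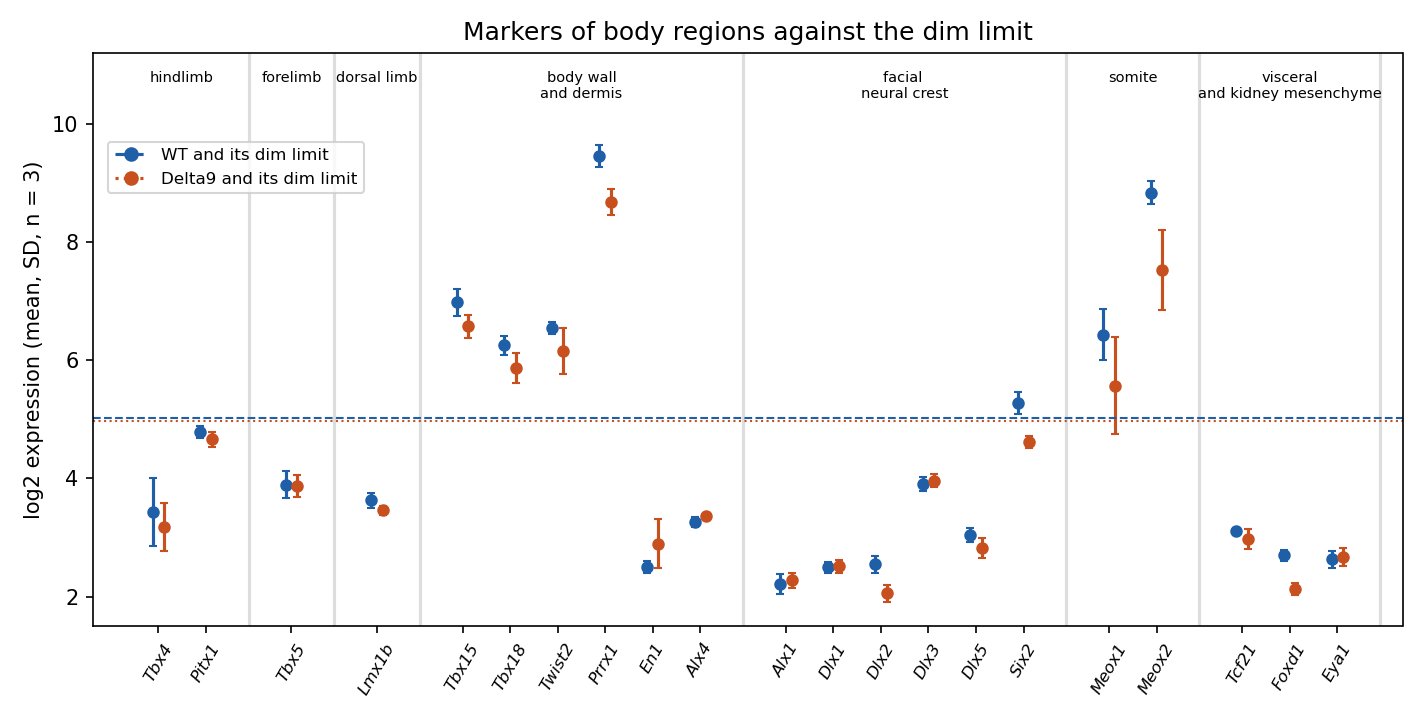
Mean log2 expression (points, with SD, n = 3) of the factors that mark body regions, in WT (blue) and Delta9 (orange); the dashed and dotted lines are the dim limits of 5.02 and 4.96. Tbx4, Pitx1, Tbx5 and Lmx1b lie under the limits, whereas Tbx15, Tbx18, Twist2, Prrx1, Meox1 and Meox2 lie above.

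In Delta9, none of the 31 factors passed the test over all genes, and their values were mostly lower. The test was limma's linear model with Benjamini-Hochberg adjustment over 18193 genes at 0.05, which called 0.0605% of all genes. Adjusted p of the 31 ran from 0.0982 to 0.972. At an unadjusted p under 0.05 there were 9 factors, all with lower values (29.0%, against 6.06% of all genes lower and 4.54% higher): Prrx1, Prrx2, Twist1, Msx1, Dlx2, Meox2, Six2, Eya2 and Foxd1. The 3 Delta9 samples all lay below the 3 WT samples for 10 factors (32.3%, against 9.99% of all genes), namely Tbx15, Tbx18 and the same 9 without Twist1. They all lay above for Meis1 and En1 (6.45%, against 7.26%). Altogether 22 factors had lower and 9 higher values in Delta9 (71.0% lower, against 53.2% of all genes), with a median difference of -0.17 beside -0.01 for all genes. The factors were listed with earlier results of these data known, so these shares only describe the list. In such bulk samples, fewer cells of a type and less RNA per cell cannot be told apart.

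**Figure D2:**
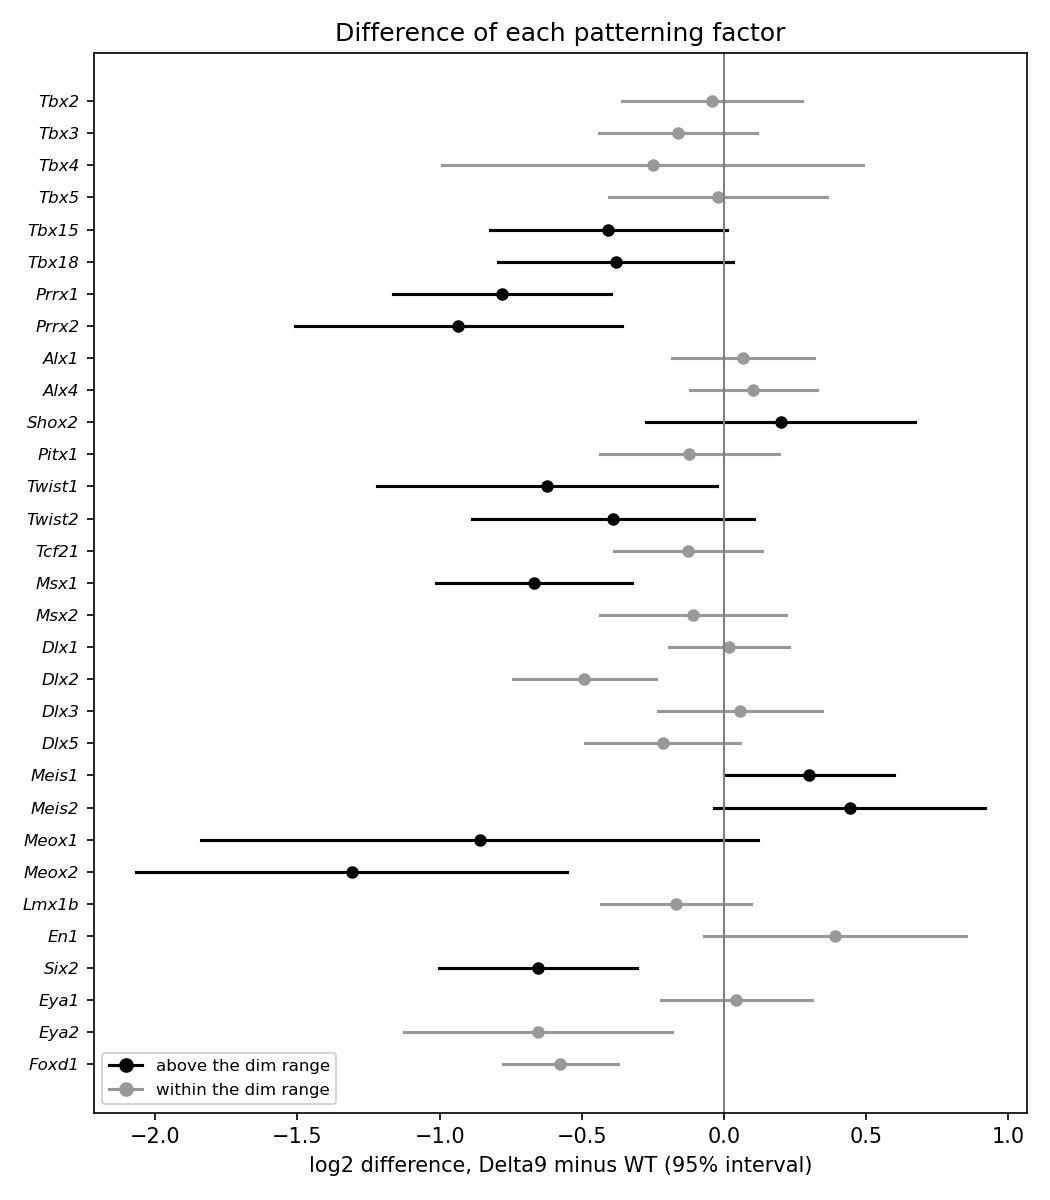
Difference of each of the 31 factors (log2, Delta9 minus WT; points, with 95% intervals from limma), ordered by family; black marks the 13 above the dim range and grey the 18 within it. Meox2, Prrx2, Meox1 and Prrx1 lie lowest among the black points, at -1.31, -0.93, -0.86 and -0.78, and Meis2 highest at 0.44.

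The paired-related factors Prrx1 and Prrx2, which pattern limb and face mesenchyme together, were both lower. Prrx1 read 9.53, 9.24 and 9.59 in WT replicates 1, 2 and 3 and 8.65, 8.46 and 8.90 in Delta9. All Delta9 samples were below all WT samples, a 1.72-fold lower level (-0.78, SE 0.16, adjusted p 0.220). Prrx2 read 7.76, 7.81 and 8.27 in WT and 6.80, 6.76 and 7.49 in Delta9, or 1.91-fold lower (-0.93, SE 0.24, adjusted p 0.279). Here too the groups were apart, with the third replicate the highest of each genotype.

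The 6 probe sets of Prrx1 disagreed, and on their mean the difference was -0.29, with an unadjusted p no longer under 0.05. Probe set 1439774_at differed by -0.84 (SE 0.27), near the -0.78 of the brightest, 1425528_at. Probe sets 1432129_a_at, 1425527_at and 1458004_at, the last 2 of them dim, differed by -0.17, -0.10 and -0.11. The remaining 1425526_a_at differed by 0.28 (SE 0.33), with 6.49, 6.45 and 5.26 in WT and 6.24, 6.26 and 6.54 in Delta9. WT replicate 3 was the 1 low reading there. Prrx1 makes more than 1 transcript by splicing, and which transcript each probe set reads was not determined here.

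Other paired-class factors did not have lower values with the groups apart. Shox2, needed for the upper segment of the limb, read 8.09, 7.99 and 8.33 in WT and 8.66, 8.37 and 7.97 in Delta9, so the groups overlapped (0.20, interval -0.27 to 0.67). Its other probe set, 1420559_a_at, differed by 0.43 (SE 0.24). Alx1, a factor of the face, was near the bottom of the scale at 2.11, 2.12 and 2.40 in WT and 2.42, 2.23 and 2.18 in Delta9. Alx4, of the anterior limb and ventral body wall, was dim as well, with a difference of 0.10 (SE 0.09).

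**Figure D3:**
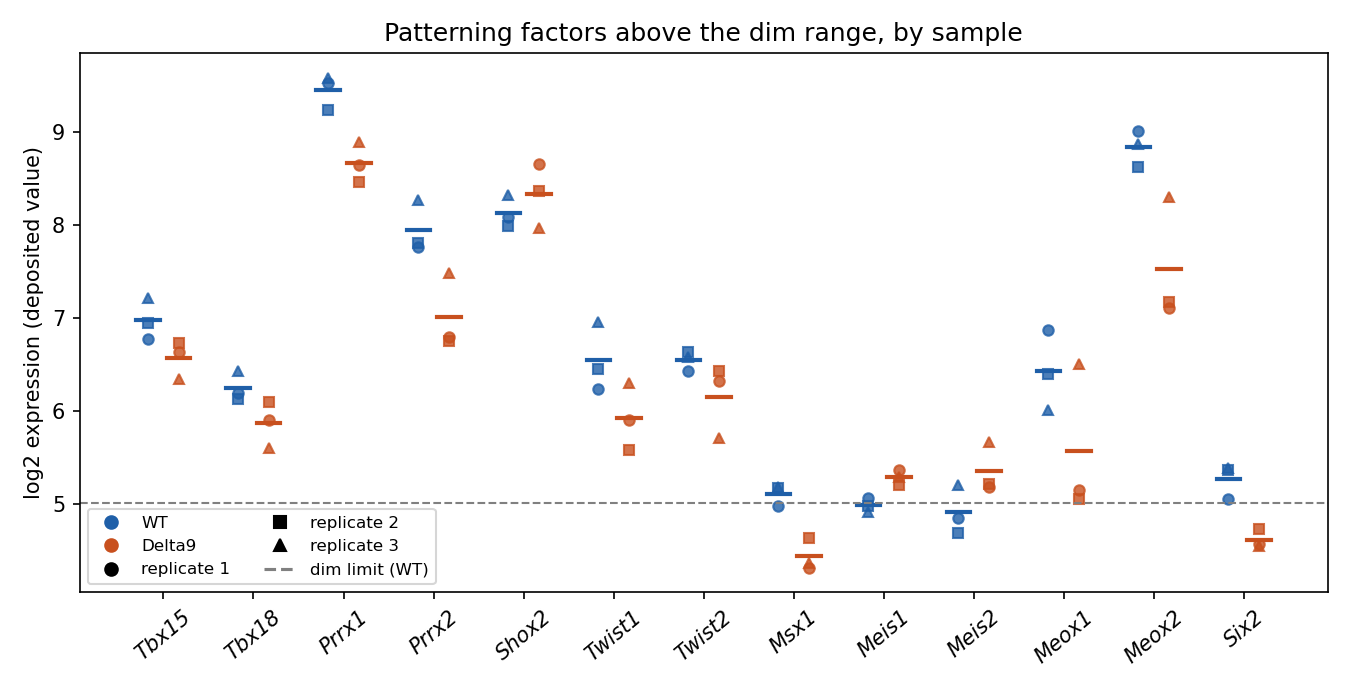
Deposited log2 expression of the 13 factors above the dim range in each sample, WT in blue and Delta9 in orange, with a marker shape per replicate and a bar at each group mean; the dashed line is the WT dim limit of 5.02. The groups are apart for Prrx1, Prrx2 and Meox2 and overlap for Shox2, Twist1 and Meox1.

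Both somite homeobox genes had lower means, and the Meox2 difference was the widest of the 31. Meox2, first described as a growth-arrest gene of vascular smooth muscle, read 9.02, 8.63 and 8.87 in WT and 7.11, 7.18 and 8.30 in Delta9. The groups were apart, at 2.48-fold lower in Delta9 (-1.31, SE 0.32, adjusted p 0.260), with Delta9 replicate 3 closest to WT. Delta9 replicates 1 and 2, the low ones here and in Meox1 and Prrx2, were also those of low Gapdh 3′ to 5′ difference, whose part was not tested. Its second probe set, 1424233_at, differed by -1.19 (SE 0.30). Without Delta9 replicate 3, the Delta9 sample nearest WT, the difference was -1.70 and passed over all genes (adjusted p 0.0179 by limma). That fit called 81 genes, against 11 with all samples. Leaving out any other single sample gave an adjusted p of 0.34 to 0.58. Meox1, its partner in somite development, read 6.88, 6.41 and 6.01 in WT and 5.15, 5.05 and 6.51 in Delta9. Delta9 replicate 3 was again the high one, above 2 of the WT samples, so the groups overlapped (-0.86, SE 0.42).

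Meis1 and Meis2, which mark the proximal limb and bind DNA beside Hox proteins, both had higher values in Delta9. Meis1 read 5.07, 4.98 and 4.92 in WT and 5.37, 5.21 and 5.29 in Delta9, apart but close (0.30, SE 0.13, adjusted p 0.471). Its dim probe sets 1443260_at and 1459423_at differed by -0.08 and -0.19. Meis2 read 4.85, 4.69 and 5.21 in WT and 5.19, 5.21 and 5.67 in Delta9, with WT replicate 3 among the Delta9 values (0.44, SE 0.20, adjusted p 0.494). Its probe set 1417129_a_at showed a wider gap: 4.29, 4.65 and 5.14 in WT against 5.82, 5.39 and 5.38 in Delta9. On that probe set the groups were apart, by 0.84 (SE 0.25), with an adjusted p of 0.431 over all probe sets by limma. The dim Meis2 probe sets 1440091_at and 1447861_x_at differed by -0.14 and -0.07. For both genes the WT mean was under the dim limit and the Delta9 mean over it.

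**Figure D4:**
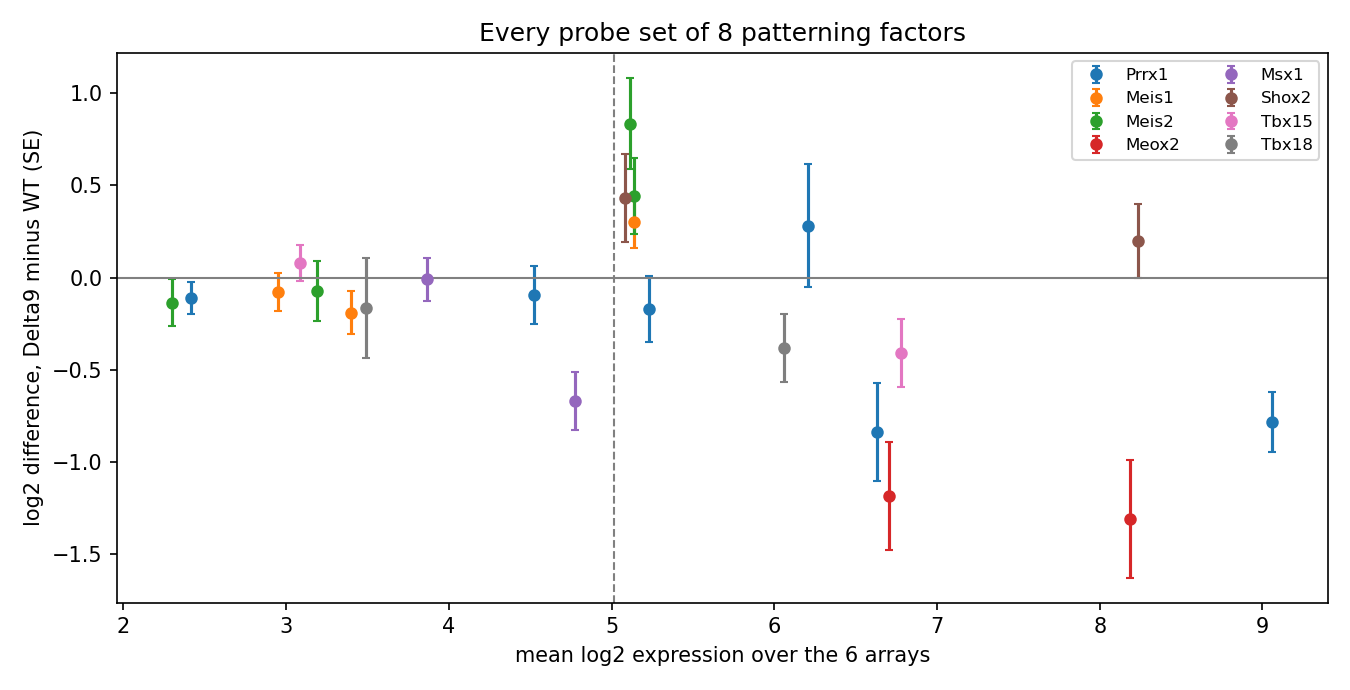
Difference (log2, Delta9 minus WT, with SE) against mean log2 expression over the 6 arrays for every probe set of 8 factors; the dashed line is the WT dim limit of 5.02. Both Meox2 probe sets lie low, at -1.31 and -1.19, while the 6 of Prrx1 run from -0.84 to 0.28.

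T-box factors had lower values in 6 of 6 cases, by little. Tbx15, which sets the dorsal border of skin and coat, read 6.77, 6.95 and 7.22 in WT and 6.63, 6.74 and 6.35 in Delta9. The groups were apart by a narrow margin (-0.41, SE 0.18, adjusted p 0.474), and its dim second probe set, 1422195_s_at, differed by 0.08. Tbx18, a factor of somite borders and of the hair follicle's dermal papilla, read 6.197, 6.13 and 6.43 in WT and 5.90, 6.10 and 5.61 in Delta9 (-0.38, SE 0.18). WT replicate 2 and Delta9 replicate 2 almost met. Tbx2 and Tbx3, repressors at the margins of the limb bud, were dim on all their probe sets, with differences of -0.04 and -0.16.

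Among basic helix-loop-helix factors, Twist1 and Twist2 had lower means but overlapping samples. Twist1, needed for limb outgrowth and cranial mesenchyme, read 6.24, 6.46 and 6.96 in WT and 5.90, 5.58 and 6.30 in Delta9 (-0.62, SE 0.25, adjusted p 0.455). It was -0.42 without WT replicate 3, its highest sample. Twist2, a factor of early dermis, read 6.43, 6.63 and 6.58 in WT and 6.32, 6.43 and 5.72 in Delta9, where replicate 3 was the low one (-0.39, interval -0.89 to 0.11). Tcf21, of visceral mesenchyme, was dim and differed by -0.13 (SE 0.11).

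Msx1, a target of BMP signals in limb and face mesenchyme, read 4.98, 5.17 and 5.18 in WT and 4.32, 4.64 and 4.37 in Delta9. The groups were apart, at 1.59-fold lower (-0.67, SE 0.15, adjusted p 0.223), and the WT mean lay over the dim limit and the Delta9 mean under it. This rests on 1448601_s_at, since the dimmer probe set 1417127_at differed by -0.01 (SE 0.12) and the mean of both by -0.34. Msx2, its close relative, was dim and differed by -0.11 (SE 0.14). Dlx2 read 2.39, 2.58 and 2.67 in WT and 2.04, 2.21 and 1.91 in Delta9 (-0.49, SE 0.11, adjusted p 0.223). These values lie under 2.74, the WT median of the organ-restricted genes. Dlx1, Dlx3 and Dlx5 differed by 0.02, 0.06 and -0.22, all dim and all overlapping.

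Six2 works with Eya co-activators in head and kidney mesenchyme. It read 5.06, 5.37 and 5.39 in WT and 4.57, 4.73 and 4.55 in Delta9, apart and 1.57-fold lower (-0.65, SE 0.15, adjusted p 0.231). Eya2 read 4.38, 4.30 and 4.76 in WT and 3.65, 4.18 and 3.65 in Delta9, also apart (-0.65, SE 0.20, adjusted p 0.343) but within the dim range. Eya1 differed by 0.04 (SE 0.11) and was dim on its 3 probe sets.

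Foxd1, a forkhead factor of kidney stroma and of some dermal fibroblast precursors, had the lowest p of the 31. Its values were 2.77, 2.60 and 2.74 in WT and 2.21, 2.01 and 2.16 in Delta9, apart by -0.58 (SE 0.09, adjusted p 0.0982 by limma). With a mean at the 11.6th percentile of all genes, it sat near the floor of the array. En1, at 2.39, 2.55 and 2.58 in WT and 3.37, 2.68 and 2.64 in Delta9, was also dim. Its higher mean in Delta9 (0.39, SE 0.20) came mostly from replicate 1.

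The sequence before the annotated start is shown for 4 factors with lower values and groups apart, Prrx1, Prrx2, Meox2 and Msx1, and for Meis2, whose values were higher, so that their motifs can be set side by side. RefSeq's promoter table of assembly GRCm38.p6 held 19 of the 31 factors. Each line gives the 250 bases before the start, 5′ to 3′ on the gene's strand: chr1:163313651-163313900 (minus strand), chr2:30845117-30845366 (plus), chr12:37108290-37108539 (plus), chr5:37824586-37824835 (minus) and chr2:116064620-116064869 (minus). Capitals mark exact matches, on either strand, to 7 motifs: the E-box CANNTG, the homeodomain core TAATTA, the Meis core TGACAG, the T-box core TCACACC, the TATA box TATAAA, the CCAAT box and the GC box GGGCGG. No match shown overlaps another.
Prrx1: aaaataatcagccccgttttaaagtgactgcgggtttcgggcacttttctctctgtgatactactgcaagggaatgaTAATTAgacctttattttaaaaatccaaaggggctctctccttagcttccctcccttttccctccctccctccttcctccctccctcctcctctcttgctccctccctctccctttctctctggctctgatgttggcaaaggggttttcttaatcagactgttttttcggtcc
Prrx2: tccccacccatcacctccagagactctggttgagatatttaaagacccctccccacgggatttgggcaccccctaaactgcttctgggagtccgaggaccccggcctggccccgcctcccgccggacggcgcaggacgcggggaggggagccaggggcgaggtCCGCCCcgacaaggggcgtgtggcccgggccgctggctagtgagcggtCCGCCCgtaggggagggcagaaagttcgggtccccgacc
Meox2: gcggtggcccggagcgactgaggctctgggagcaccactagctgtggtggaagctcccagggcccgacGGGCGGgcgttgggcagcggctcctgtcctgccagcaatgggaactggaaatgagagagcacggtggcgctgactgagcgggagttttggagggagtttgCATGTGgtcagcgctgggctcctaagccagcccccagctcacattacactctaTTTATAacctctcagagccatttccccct
Msx1: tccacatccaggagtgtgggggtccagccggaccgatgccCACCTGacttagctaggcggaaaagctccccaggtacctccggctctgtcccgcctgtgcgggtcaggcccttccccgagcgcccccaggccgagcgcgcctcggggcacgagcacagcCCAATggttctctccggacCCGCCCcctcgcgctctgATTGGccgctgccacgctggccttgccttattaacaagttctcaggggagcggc
Meis2: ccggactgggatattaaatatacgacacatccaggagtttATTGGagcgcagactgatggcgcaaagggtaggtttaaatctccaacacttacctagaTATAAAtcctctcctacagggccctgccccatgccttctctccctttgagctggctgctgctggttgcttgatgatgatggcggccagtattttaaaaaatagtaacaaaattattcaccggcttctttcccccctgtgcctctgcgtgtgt

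No motif was common to the 4 lower factors in these windows. Prrx1 held 1 homeodomain core, found in 4.84% of all 32851 windows of this length, and no GC box. Prrx2 held 2 GC boxes, a motif of 32.7% of all windows, and Meox2 and Msx1 held 1 each. Meox2 and Msx1 each had 1 E-box, as do 66.2% of windows, and Meox2 had a TATA box (12.4%), as did Meis2. Over the 19 factors the T-box core was in 0 windows (3.33% of all) and the Meis core in 4 (15.9%), with E-boxes in 10. The CCAAT box was in 12 of the 19 (33.9% of all windows), the GC box in 11 (32.7%) and the TATA box in 5 (12.4%). In the windows shown, Msx1 held 2 CCAAT boxes and Meis2 held 1. These matches describe letters, and nothing in the arrays measured binding there.

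Genes around the factors were given from 3 wider lists. Of 50 other mesenchymal patterning factors, 38 had lower values, none passed over all genes and 11 were lower at an unadjusted p under 0.05 (22.0%, against 6.06% of all genes), with a median of -0.14. The 4 of lowest p were Snai2, a repressor of epithelial genes (-0.67, SE 0.14), the forkhead factors Foxp1 (-0.55, SE 0.15) and Foxc1 (-1.23, SE 0.36), and Six5 (-0.63, SE 0.18). Of 21 DNA-binding partners and cofactors, 10 were lower (median 0.06), and 1 fell past the threshold, Id3, which binds and blocks the partners of Twist proteins (-1.30, SE 0.14, adjusted p 0.0487 by limma). Id3 read 10.40, 10.36 and 10.55 in WT and 9.21, 9.30 and 8.90 in Delta9. Its call held in 6 of 17 alternatives and was lost in 11, among them each fit that left out 1 sample other than Delta9 replicate 3, with adjusted p from 0.00736 to 0.390. Its relatives Id4 (-1.42, SE 0.32) and Id1 (-0.92, SE 0.21) and the co-repressor Tle2 (-1.02, SE 0.22) came next. Of 39 limb signals and receptors, 31 had lower values (median -0.20), 0 passed by limma and 9 were lower at an unadjusted p under 0.05 (23.1%, against 6.06% of all genes).

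Bmp4, the ligand upstream of Msx genes in limb and face, had the lowest p by limma in that last list. It did not have the widest difference there, which was -2.39. Bmp4 read 7.996, 7.14 and 7.85 in WT and 5.73, 5.80 and 6.30 in Delta9, well apart (-1.72, SE 0.27, adjusted p 0.112). Next by p came the receptor Fgfr2 (-0.86, SE 0.17), the retinoic acid enzyme Aldh1a3 (-1.18, SE 0.25) and the ligand Fgf9 (-1.18, SE 0.32), each with its groups apart. None of these passed over all genes.

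The arrays were also read in 2 parts, split at the widest gap between spike-in means (0.38 log2, from 4.87 to 5.25). The 2 arrays below it, at 4.55 and 4.87, were nearly as far from each other. The 4 arrays above it leave out Delta9 replicate 3, for Meox2 the Delta9 sample nearest WT. In the 4 arrays of higher signal, Meox2 differed by -1.61 and passed over all genes (adjusted p 0.0261 by limma), and Prrx2 by -1.26, Meox1 by -1.11 and Twist1 by -0.96. Between Delta9 replicate 3 and WT replicate 1, which allow no test, these differences were -0.71, -0.28, -0.37 and 0.06. Prrx1, Msx1 and Six2 held closer, at -0.86, -0.70 and -0.73 in the 4 arrays and -0.63, -0.61 and -0.51 in the pair. For Prrx1, Msx1, Six2, Meox2 and Prrx2 the sign in both parts was fixed, because their groups do not overlap. No label names this split, and its part in these differences was not tested.

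**Figure D5:**
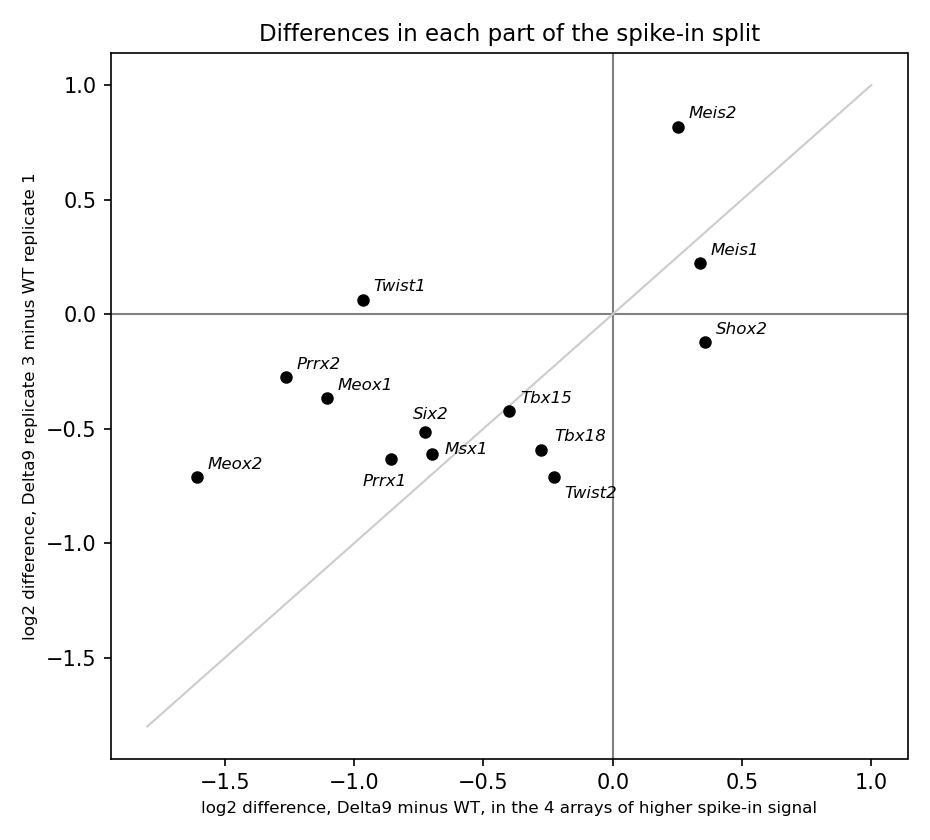
Difference of the 13 factors above the dim range in the 4 arrays of higher spike-in signal (horizontal, log2) against that between Delta9 replicate 3 and WT replicate 1 (vertical, log2); the diagonal marks equal values. Meox2, Prrx2, Meox1 and Twist1 lie left of the diagonal, at -1.61, -1.26, -1.11 and -0.96 on the horizontal axis.

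Some genes of other cell types also differed with the groups. Macrophage markers were higher in Delta9 for 20 of 20 (median 1.06), with 0 past the threshold by limma. At an unadjusted p under 0.05 there were 5 of 20, against 4.54% of all genes higher. Their mean per array, relative to the 6-array mean, ran from 0.28 to 0.79 in Delta9 and from -1.69 to 0.36 in WT. These ranges overlapped, and WT replicate 3 was the lowest, at -1.69. By gene, all Delta9 samples lay above all WT samples for 7 of 20 (35.0%, against 7.26% of all genes). Smooth muscle and pericyte markers were lower for 9 of 10 (median -0.49), with the groups apart for 1 of 10 (10.0%, against 9.99% of all genes). Their means per array overlapped (-0.64 to 0.02 in Delta9, 0.01 to 0.52 in WT) and were lowest in Delta9 replicate 3. Fibroblast markers were lower for 10 of 11 (median -0.23). Skeletal muscle markers overlapped between the groups (-0.61 to 0.39 and -0.19 to 0.59), as did endothelial ones, of which 5 of 11 lay above the dim range (Kdr, Cldn5, Emcn, Flt1 and Egfl7) and Cdh5, Tie1 and Pecam1 did not. Chondrocyte and bone markers were lower for 6 of 7, with the groups apart for 4 of 7 (57.1%, against 9.99% of all genes), and 2 of the 7, Sox9 and Col2a1, lay above the dim range. Adipocyte markers were higher for 5 of 7, 2 of them above the dim range, and Fabp4 differed by 1.44 (SE 0.29) with the groups apart. Lep and Retn, both dim, went the other way with the groups apart (-0.21 and -0.36), and Adipoq and Pparg overlapped. Schwann cell and neuron markers lay above the dim range for 5 of 7, with a median of 0.04 and overlapping means per array. With the macrophage mean as a covariate Prrx1 differed by -0.77, Meox2 by -1.47 and Foxd1 by -0.59, near their differences without it. Their adjusted p by limma there were 0.614, 0.614 and 0.546. Prrx2 came to -0.76, Twist1 to -0.35, Eya2 to -0.38 and Tbx15 to -0.15 in that fit. At an unadjusted p under 0.05, in either direction, there were 7 factors, as there were 8.03% of all genes. Prrx2, Twist1 and Eya2 were no longer among these factors, and Meox1 joined them. None of the 31 passed there. The part of the other cell types' RNA was not tested.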

How the data were processed

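RNA of 6 cultures, extracted with Trizol and labelled with biotin by a one-cycle kit per the labels' protocols, was hybridised to 1 Affymetrix array each. The authors deposited log2 probe set values on a near-common scale (array medians 3.36 to 3.43). How they were summarised and normalized is not given in the sources used here, and the log base was inferred from the range. No filter or further scaling was applied.

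Of 45101 probe sets, 34945 had 1 gene symbol in the platform annotation, 932 several, 64 were controls and 9160 are unnamed here; 34741 matched RefSeq (GRCm38.p6) by Entrez identifier and 0 symbols changed. Each of 18193 genes took its brightest probe set. Delta9 was compared with WT by limma 3.58.1 (lmFit, eBayes with trend) under R 4.3.3, and p-values were adjusted by Benjamini-Hochberg over all genes (threshold 0.05). The script was tested on simulated data. No test was made over the list of factors. Factors given with every sample's value were those past the threshold, at an unadjusted p under 0.05, or with groups apart by at least 0.5 log2, and 11 origin markers. Meox1, Meis1, Meis2, Shox2, Tbx18, Hox genes and single cell type markers were added after their values were seen. Of each wider list, genes past the threshold and the 4 of lowest p were named. Members, lists, alternatives and markers were chosen with earlier results of these data known. Alternatives were other probe set rules, quantile normalization, a filter, other variance models, array weights, the replicate number or the spike-in split as a block, the macrophage mean as a covariate and leaving out each sample. Figures used matplotlib 3.10.9.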

Additional observations from a re-analysis of the deposited data

How the results depend on the processing

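None of the 31 factors passed under the other probe set rules, quantile normalization, the filter, no trend, robust variances, the replicate block or the macrophage covariate. With array weights 2 passed (Meox2 and Foxd1), with the spike-in split as a block 1 (Meox2), within its larger part 1 (Meox2), and at an adjusted p under 0.1 Foxd1 alone, 1. Leaving out each sample gave 0 to 1. The count over all genes, 11, was 139 with array weights, 149 with the spike-in block, 61 within the larger part, 2 with the macrophage covariate, 48 at 0.1, and 1 to 81 with single samples left out, 81 without Delta9 replicate 3 and 1 without WT replicate 2. The count of factors at an unadjusted p under 0.05, 9, was 14 with array weights and 14 with the spike-in block, where 20.0% and 18.1% of all genes had such a p, against 10.6% without either, and 7 to 12 otherwise. All alternatives for this count were chosen after seeing the data. Their median, -0.17, was -0.23 with the lowest 25% of genes left out, which drops the dimmest factors, and -0.21 to -0.12 with single samples left out. Among the 17 factors refitted under each alternative, these differences turned sign: Alx1 -0.041 with the mean of probe sets, -0.15 on 1456454_at and -0.0046 to 0.16 without single samples; Tbx4 0.11 with array weights, 0.24 with the macrophage covariate, 0.0082 on 1426321_at and -0.49 to 0.069; Tbx5 0.051 within the larger part and -0.15 to 0.081; Prrx1 0.28 on 1425526_a_at; Tbx15 0.080 on 1422195_s_at. Apart from the probe set choice itself, the cause was not tested. With the replicate block, 0 genes passed by limma (1348 at an unadjusted p under 0.05, against 1928 without it). The factors' median was -0.17 there, with 10 at an unadjusted p under 0.05. Same-numbered samples' deviations correlated at -0.40, 0.17 and -0.43, and those of Delta9 replicate 3 and WT replicate 1 at 0.59. With 3 samples per group, these values give no sign of pairing by number and cannot exclude it.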
